A study of Mus musculus with 2 samples.

Results

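The genes described here are 10 transcription factors that set or keep intestinal identity: the caudal homeobox genes Cdx1 and Cdx2, the nuclear receptors Hnf4a and Hnf4g, the zinc finger genes Gata4 and Gata6, the Krüppel-like factors Klf4 and Klf5, the membrane-bound factor Creb3l3 and the basic leucine zipper factor Maf. They were chosen by name, with earlier results of these data known, and all 10 have a row among the 15745 genes of the table. The cells came from mouse intestinal organoids, closed epithelial cultures that grow in a gel and form crypt-like buds and villus-like domains. Droplets caught the 3-prime ends of their transcripts, and each caught transcript was counted once by its molecular barcode, or UMI. The day 5 library came from organoids in ENR medium (EGF, Noggin and R-spondin) that had been in ENR alone since day 3. The day 3 library came from organoids at the end of the first 3 days, when the ENR of both libraries also held 20% Wnt3a-CM (conditioned medium) and 10 µM Y-27632, a kinase inhibitor. Both had received 3 µM CHIR99021, a GSK3 inhibitor, until day 1, and the mice were wild-type C57BL/6 aged 10 weeks. Culture day and medium differ together, and each day has 1 library, so differences are between these 2 libraries and intervals cover counting error only.

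In the embryo and the adult, CDX2 keeps the posterior gut epithelium intestinal, and its loss lets stomach genes come on. HNF4A and HNF4G bind the same DNA element and act in an overlapping way on the genes of the brush border and of fat handling in enterocytes, the absorptive cells of the villus. GATA4 marks the upper small intestine, KLF5 is known for dividing crypt cells and KLF4 for goblet cells. CREB3L3 and MAF are known from mouse work as regulators of genes of mature enterocytes, CREB3L3 mainly of lipoprotein genes.

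The day 5 library held 1065 cells with a median of 13549 UMIs per cell, and the day 3 library 798 cells with a median of 32063.5. Levels are given as CPM (UMIs per 1000000 UMIs) of the cells summed, with exact Poisson 95% intervals in brackets. The epithelial genes Epcam and Vil1 stood at 950.2 and 164 CPM at day 5 and at 1006 and 119 CPM at day 3. Of 12 immune markers 5 were in the table, at 2.13 CPM in sum at day 5 and 2.12 CPM at day 3, and Ptprc was not among them. Of 10 stromal and endothelial markers 2 were in the table, at 0.634 CPM in sum at day 5 and 1.01 CPM at day 3. Cells of each library were clustered without the 10 factors and clusters were named from marker genes. At day 5, 462 cells in clusters 7, 8 and 9 were Enterocyte-like, 17 in cluster 5 Regenerative-like, 40 in cluster 4 mixed secretory (Paneth and goblet genes together), 266 in clusters 1 and 3 Proliferating-like and 119 in cluster 2 Stem-like. At day 3 these classes held 108 (clusters 7 and 8), 92 (cluster 1), 45 (cluster 10), 79 (cluster 2) and 147 cells (clusters 5 and 11), and 8 cells in cluster 4 were Enteroendocrine-like. A total of 161 cells at day 5 and 319 cells at day 3 stayed unnamed. The Stem-like name rests on 3 markers among 30 leading genes at day 5, against 11 and 7 in the day 3 clusters. The Enterocyte-like name of day 3 clusters 7 and 8 also rests on 3 markers each. Cluster 7 had 0 of them among its first 10 leading genes. In 3 of the 119 Stem-like cells at day 5, enteroendocrine markers took over 1% of UMIs, and no factor called in a class comparison lost its call when these cells were left out.

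Between the libraries, the factors of mature enterocytes differed most. A gene is said below to be higher or lower where the ratio was at least 1.5-fold and the intervals of both sides did not overlap, among genes with at least 10 UMIs over both sides. By this rule Hnf4g, Gata6, Creb3l3 and Maf were higher at day 5, which is 4 of 10 factors, while 12.3% of 12782 genes were higher. Klf4 was lower, which is 1 of 10, against 31.6% of all genes, and the other 5 were neither. The median log2 ratio of the 10 factors was 0.37, and that of all genes -0.33. Over all genes 1570 were higher and 4042 lower. With TMM factors these were 2401 and 2197, the median of all genes was -0.02, and Gata4 (0.65) and Klf5 (0.72) also counted as higher. Counted per cell, with no scaling, Hnf4g, Creb3l3 and Maf had more UMIs at day 5 and the other 7 had fewer.

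**Figure D1:**
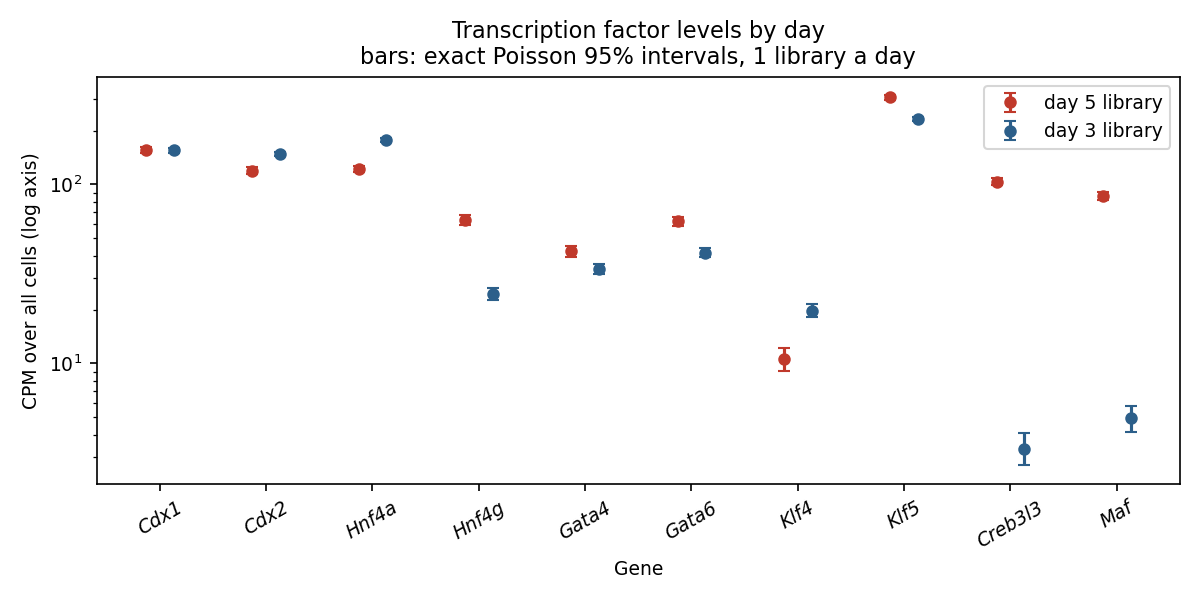
CPM of each factor over all cells of the day 5 library (red) and the day 3 library (blue) on a log axis, with exact Poisson 95% intervals as bars. Creb3l3 (104 and 3.34 CPM) and Maf (86.7 and 4.94 CPM) lie far apart between the days, whereas Cdx1 (156 and 155 CPM) lies on one level.

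Within a day, the enterocyte classes carried the largest differences. In day 5 Enterocyte-like cells over Stem-like cells, Hnf4g, Gata6, Creb3l3 and Maf were higher (4 of 10, background 17% of 10316 genes) and Cdx1, Cdx2 and Klf5 lower (3 of 10, background 23.1%). At day 3, Hnf4g, Klf4, Creb3l3 and Maf were higher in Enterocyte-like cells (4 of 10, background 10.7% of 10674 genes) and none was lower, against 14.8% of all genes. Regenerative-like cells are the clusters led by genes such as Msln and Anxa1 or Ly6a. At day 3, where 9 factors had enough UMIs, Klf4 and Maf were higher there than in Stem-like cells (2 of 9, background 24.6% of 11057 genes) and Cdx2 was lower (1 of 9, background 8.93%). Both counts lie near the share of all genes. At day 5, with 17 Regenerative-like cells, Creb3l3 was higher (1 of 10, background 9.02% of 9021 genes) and Cdx1 lower (1 of 10, background 2.24%). The Creb3l3 call rests on 14 and 6 UMIs. Median depth was 25153 UMIs in these cells and 14317 in Stem-like cells, and counted per cell 6 factors were higher and Cdx1 was no longer lower. Classes differed in UMIs per cell, with a median of 10879 in Enterocyte-like and 14317 in Stem-like cells at day 5, and its part in these ratios was not tested. Counted per cell with no scaling, Creb3l3 and Maf alone of the 10 were higher in day 5 Enterocyte-like cells.

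**Figure D2:**
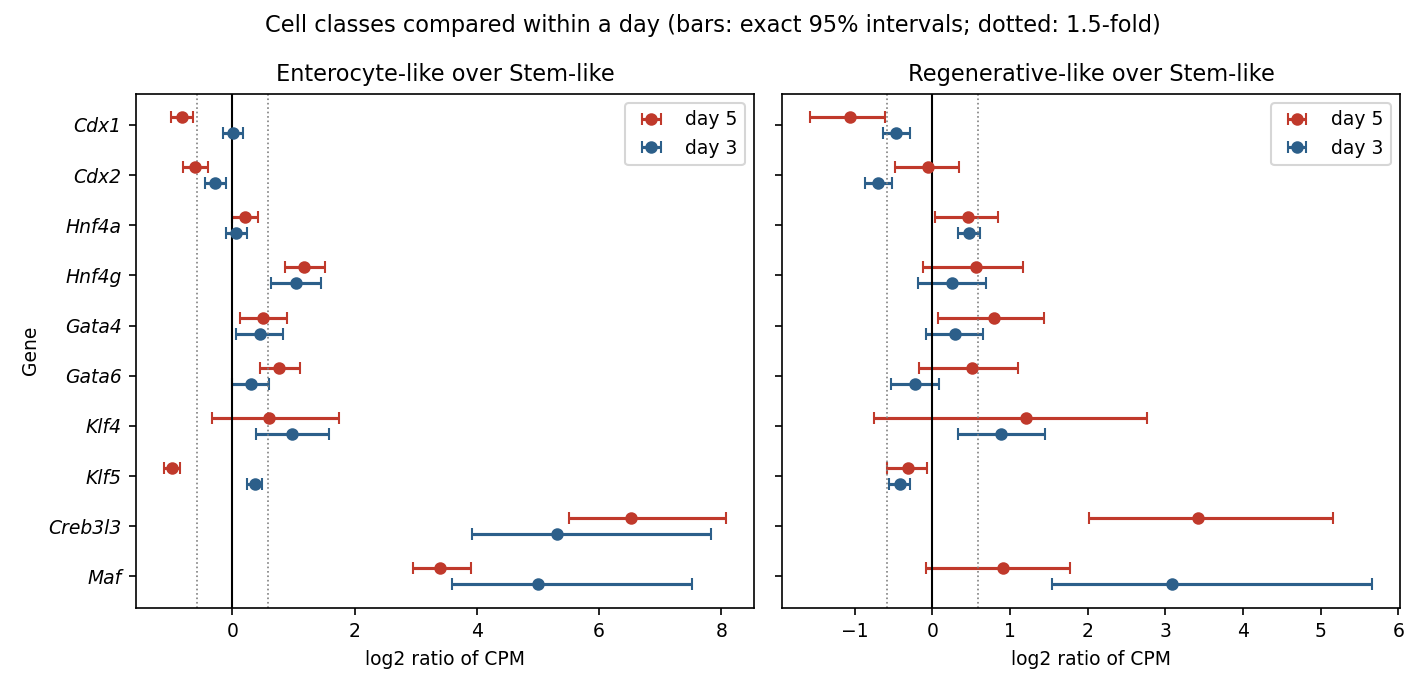
Log2 ratio of CPM with exact 95% intervals for Enterocyte-like over Stem-like cells (left) and Regenerative-like over Stem-like cells (right), at day 5 (red) and day 3 (blue), with dotted lines at 1.5-fold. Klf5 has a ratio of -0.99 at day 5 and 0.36 at day 3 in the left panel. Creb3l3 at day 3 in the right panel is not drawn, having under 10 UMIs on both sides together.

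Cdx1 and Cdx2, the caudal homeobox factors, differed little between the days and were lower in day 5 enterocytes. Cdx1 (ENSMUSG00000024619, chromosome 18, 61018862 to 61036199, minus strand, GRCm38) stood at 156 CPM (150 to 162) at day 5, against 155 CPM (150 to 160) at day 3. Its log2 ratio was 0.01 (-0.06 to 0.08). Cdx2 (ENSMUSG00000029646, chromosome 5, 147300805 to 147307270, minus strand) stood at 119 CPM (114 to 125) at day 5, against 148 CPM (143 to 152) at day 3, giving a log2 ratio of -0.31 that is close to the median of all genes. Neither passed the 1.5-fold limit.

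At day 5 Cdx1 was at 111 CPM (102 to 120) in Enterocyte-like cells and 196 CPM (178 to 216) in Stem-like cells, a log2 ratio of -0.82. Cdx2 was at 95.1 CPM (87.0 to 104) in Enterocyte-like cells and 145 CPM (129 to 162) in Stem-like cells, a log2 ratio of -0.61. The Cdx2 difference lay near the limit and was no longer called with TMM factors (-0.37), with the top cell of each side dropped, or with Proliferating-like cells joined to the Stem-like ones. At day 3 neither gene was called between these classes, with log2 ratios of 0.01 for Cdx1 and -0.28 for Cdx2. The Cdx1 ratio joins 2 unlike Enterocyte-like clusters, cluster 7 at 189 CPM (166 to 215) and cluster 8 at 116 CPM (100 to 133). Stem-like cells lay between them, and Cdx2 was at 132 and 131 CPM in these clusters. The lowest Cdx2 level of that day was in the Regenerative-like cells, at 98.6 CPM (89.1 to 109) against 160 CPM (149 to 171) in Stem-like cells, a log2 ratio of -0.69. That call was lost when UMIs were counted per cell (-0.42) and in 3 of the other groupings of cells. Cdx1 in the same cells was at 106 CPM (96.0 to 116), against 146 CPM (136 to 156) in Stem-like cells, which is under the fold limit. At day 5 the 17 Regenerative-like cells had Cdx1 at 93.2 CPM (66.9 to 126) and Cdx2 at 139 CPM (106 to 178).

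Along the cells of day 5 sorted by the share of their UMIs in 18 enterocyte markers and cut into 5 groups of 213, Cdx1 was lower in each group than in the one before, at 192, 175, 150, 115 and 99.3 CPM, though some neighbouring intervals overlapped. Cdx2 stayed at 123, 140 and 126 CPM in the first 3 groups and was at 93.5 and 92.0 CPM in the last 2. Such groups are ranges and not types, and 247 of the 1065 cells lay within 10% of an edge. The median of UMIs per cell was 20538 in the first group and 9968 in the last. At day 3, where the marker share was low throughout (0.0353% to 0.222% of UMIs as group medians), Cdx1 was at 140, 155, 162, 175 and 144 CPM along the groups and Cdx2 between 134 and 155 CPM. Of the 798 cells of day 3, 342 lay within 10% of an edge of these groups. Cdx1 made up 56.7% (55.2 to 58.1, exact Clopper-Pearson interval) of the UMIs of the pair at day 5 and 51.2% (50.1 to 52.2) at day 3. The mixed secretory cells of day 5 stood highest, at 68.0% (60.6 to 74.8), with Cdx2 at 73.8 CPM (55.9 to 95.6), its lowest level of that day. Cdx2 and Klf5 were lower there than in Stem-like cells (2 of 10, background 4.29%), with log2 ratios of -0.96 each.

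Hnf4g was higher at day 5 and Hnf4a was not. Hnf4g (ENSMUSG00000017688, chromosome 3, 3508030 to 3658052, plus strand) stood at 63.3 CPM (59.6 to 67.1) at day 5, against 24.5 CPM (22.8 to 26.4) at day 3, giving a log2 ratio of 1.37 (1.23 to 1.51). Hnf4a (ENSMUSG00000017950, chromosome 2, 163506808 to 163572910, plus strand) stood at 122 CPM (117 to 127) at day 5, against 178 CPM (173 to 183) at day 3, giving a log2 ratio of -0.54 (-0.62 to -0.47). The Hnf4a ratio was under the fold limit, and with TMM factors it was -0.23. Read as a share, Hnf4g held 34.2% (32.6 to 35.9) of the pair's UMIs at day 5 and 12.1% (11.3 to 13.0) at day 3.

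The share differed by class and by day. In Enterocyte-like cells Hnf4g held 43.0% (40.2 to 45.8) of the pair at day 5 and 19.1% (16.0 to 22.7) at day 3. In Stem-like cells it held 27.8% (23.0 to 33.0) at day 5 and 10.7% (8.76 to 13.0) at day 3, and in Regenerative-like cells 29.2% (20.3 to 39.3) at day 5 and 9.35% (7.53 to 11.4) at day 3. Each of these 3 classes had a higher share at day 5, with intervals that did not overlap. The same held in Proliferating-like cells, at 21.7% (19.2 to 24.5) and 12.1% (9.63 to 15.0). It also held in mixed secretory cells, at 33.0% (24.6 to 42.4) and 10.2% (6.69 to 14.6), and in unnamed cells, at 42.5% and 12.2%. Within the Stem-like cells Hnf4g was higher at day 5, at 43.5 CPM (35.1 to 53.4) against 17.4 CPM (14.0 to 21.3) at day 3, giving a log2 ratio of 1.32. That ratio came from 92 UMIs in cluster 2 at day 5 and 93 in clusters 5 and 11 at day 3. The 18 enterocyte markers summed to 3124 CPM in cluster 2 at day 5, and to 640 and 637 CPM in clusters 5 and 11 at day 3, and their part in the ratio was not tested. Other markers of the class also differed between the days. Of 18 stem markers 2 were higher and 12 lower at day 5, with 1229 CPM in sum against 1870 CPM at day 3, and Lgr5 and Ascl2 were among the lower ones. Of 20 proliferation markers 19 were lower, with 913 CPM in sum at day 5 against 3626 CPM at day 3. Their part in these ratios was not tested either. By the same rule Klf5 and Maf were also higher in Stem-like cells at day 5, 3 of 9 factors with enough UMIs against 7.68% of 10549 genes, and none was lower, against 19.2%.

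**Figure D3:**
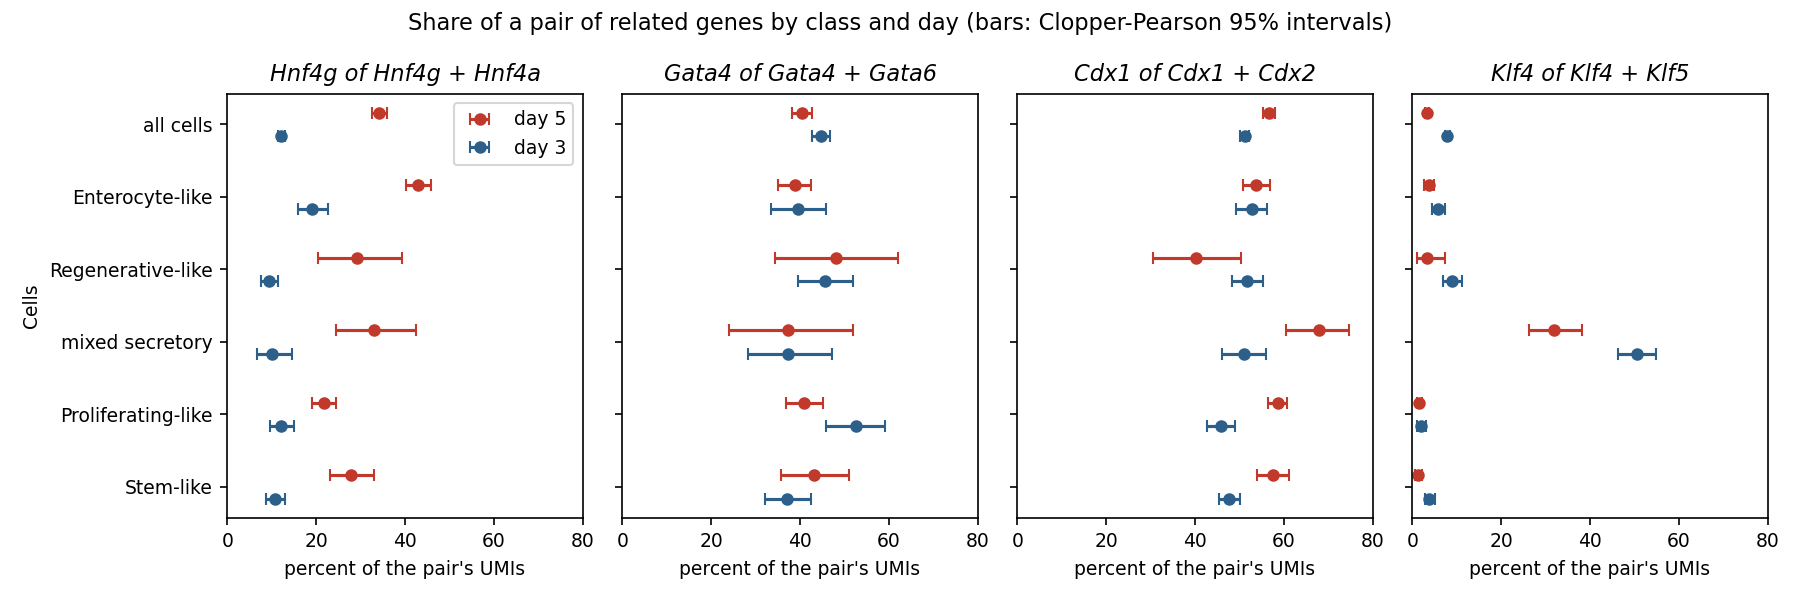
Share of each gene in the summed UMIs of a pair of relatives, by class, at day 5 (red) and day 3 (blue), with Clopper-Pearson 95% intervals. Hnf4g takes 43.0% of its pair in day 5 Enterocyte-like cells and 10.7% in day 3 Stem-like cells, and Klf4 takes 50.6% of its pair in day 3 mixed secretory cells.

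Hnf4g was highest at day 5 in the Enterocyte-like clusters 8, 7 and 9, at 110 CPM (93.5 to 130), 97.3 CPM (83.5 to 113) and 91.9 CPM (79.7 to 105), whose intervals overlap. The unnamed cluster 6, led by Hsd17b2, followed at 79.4 CPM (68.8 to 91.3), and the lowest levels were in the Proliferating-like clusters at 34.4 and 34.1 CPM. Hnf4a spanned a narrow range of 99.7 to 155 CPM over the same 9 clusters, and each cluster overlapped its neighbour in the order. Clusters further apart did not all overlap, such as Enterocyte-like clusters 9 (132 to 165 CPM) and 7 (90.2 to 120 CPM). Enterocyte-like over Stem-like cells gave log2 ratios of 1.17 (0.86 to 1.51) for Hnf4g and 0.20 (-0.01 to 0.43) for Hnf4a at day 5, and 1.04 (0.63 to 1.46) and 0.06 (-0.11 to 0.23) at day 3. Counted per cell, the Hnf4g ratio at day 5 was 0.57 and no longer called. Along the 5 marker groups of day 5 Hnf4g was at 34.6, 38.5, 86.8, 106.5 and 87.4 CPM, so its step came between the second and the third group. Hnf4a stayed between 113 and 138 CPM. In day 3 Regenerative-like cells Hnf4a was at 201 CPM (188 to 215), against 145 CPM (135 to 155) in Stem-like cells, a log2 ratio of 0.48 that is under the limit.

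Hnf4a is the factor whose transcripts start at 2 distant promoters, and 3-prime counts add both together. The windows from 250 bases before to 50 bases after each start (RefSeq, GRCm38.p6, plus strand, chr2:163506607-163506906 and chr2:163546905-163547204) are shown to mark what each start carries. Capitals mark matches, on either strand, to the GATA motif AGATAA and the KLF motif CCACCC.
Hnf4a upstream start: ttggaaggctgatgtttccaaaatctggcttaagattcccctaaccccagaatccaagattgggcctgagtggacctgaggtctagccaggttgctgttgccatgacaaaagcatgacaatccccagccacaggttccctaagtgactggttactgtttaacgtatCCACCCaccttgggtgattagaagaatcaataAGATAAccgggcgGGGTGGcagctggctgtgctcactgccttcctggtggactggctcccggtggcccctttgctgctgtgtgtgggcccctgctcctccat
Hnf4a downstream start: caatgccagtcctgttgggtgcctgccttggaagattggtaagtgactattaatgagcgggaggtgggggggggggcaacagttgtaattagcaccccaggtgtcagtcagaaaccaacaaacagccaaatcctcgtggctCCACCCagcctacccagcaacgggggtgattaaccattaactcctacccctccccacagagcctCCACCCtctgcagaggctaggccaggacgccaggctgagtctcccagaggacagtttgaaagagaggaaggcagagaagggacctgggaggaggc
The upstream window held 1 AGATAA at position -52 from the start and 2 CCACCC, and the downstream window held 2 CCACCC. No match overlapped another. Over 32544 promoter windows of the same length 11.16% held AGATAA and 31.55% CCACCC. An antisense gene, Hnf4aos, overlaps Hnf4a with 38 UMIs at day 5 and 6 at day 3, and the strand setting of the counting is not given in the sources used here.

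Gata4 and Gata6 are zinc finger factors that act together in the small intestine. Gata6 was higher in Enterocyte-like than in Stem-like cells at day 5, and Gata4 was called on neither day, though at day 5 it was with TMM factors. Gata6 (ENSMUSG00000005836, chromosome 18, 11052064 to 11085635, plus strand) stood at 62.4 CPM (58.7 to 66.2) at day 5, against 41.5 CPM (39.2 to 44.0) at day 3, giving a log2 ratio of 0.59 (0.47 to 0.71), just past the 1.5-fold limit. It was not called in the 320 day 5 cells that reach the day 3 minimum of UMIs (0.44), nor with Enterocyte-like cells left out on both days (0.46). A gene on the other strand, 1010001N08Rik, overlaps Gata6 with 191 UMIs at day 5 and 125 at day 3. Gata4 (ENSMUSG00000021944, chromosome 14, 63198922 to 63271692, minus strand) stood at 42.4 CPM (39.4 to 45.6) at day 5, against 33.6 CPM (31.5 to 35.8) at day 3, giving a log2 ratio of 0.34 that is under the limit.

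At day 5 Gata6 was at 77.3 CPM (70.1 to 85.1) in Enterocyte-like cells and 45.4 CPM (36.8 to 55.4) in Stem-like cells, a log2 ratio of 0.76. Counted per cell this ratio was 0.16 and was not called. Gata4 was at 48.9 CPM (43.2 to 55.2) in Enterocyte-like cells and 34.5 CPM (27.1 to 43.4) in Stem-like cells, a log2 ratio of 0.50 under the limit. Along the marker groups of day 5 Gata6 was at 49.0, 53.2, 71.5, 74.7 and 81.1 CPM, with neighbouring intervals overlapping except between the second and the third group. Gata4 was at 28.2 CPM in the first group and between 46.0 and 50.5 CPM in the other 4. At day 3 Gata6 was at 51.2 CPM in Enterocyte-like and 41.5 CPM in Stem-like cells, with overlapping intervals. With the clusters of each library put in order of level, neighbouring intervals of either gene overlapped throughout, though clusters further apart did not all overlap. At day 5 Gata6 was at 83.7 CPM (72.1 to 96.7) in cluster 9 and 58.0 CPM (50.9 to 65.8) in cluster 1. At day 3 Gata4 was at 44.1 CPM (37.3 to 51.8) in cluster 9 and 24.7 CPM (19.3 to 31.1) in cluster 5. Gata4 held 40.5% (38.2 to 42.8) of the pair at day 5 and 44.7% (42.6 to 46.8) at day 3, and 38.8% and 39.5% in the Enterocyte-like cells of these days.

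Klf4 was highest in the mixed secretory cluster of each day, whereas Klf5 was found in most cells, that cluster included. With all UMIs kept, Klf5 was found in 91.8% of cells at day 5 and 98.4% at day 3. In the mixed secretory cells it was found in 80% at day 5 and 95.6% at day 3. Klf4 (ENSMUSG00000003032, chromosome 4, 55527143 to 55532466, minus strand), a factor needed for colonic goblet cells, stood at 10.5 CPM (9.08 to 12.2) at day 5, against 19.7 CPM (18.2 to 21.4) at day 3, giving a log2 ratio of -0.90 (-1.15 to -0.66). It counted as lower, and did so with TMM factors as well (-0.59). Its UMIs were concentrated in few cells, with 43.2% at day 5 and 47.9% at day 3 in the mixed secretory cluster, which held 3.76% of cells at day 5 and 5.64% at day 3. There Klf4 was at 102 CPM (81.0 to 127) at day 5, against 169 CPM (149 to 190) at day 3. No other cluster exceeded 11.4 CPM at day 5 or 24.97 CPM at day 3.

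Mixed secretory over Stem-like cells gave log2 ratios for Klf4 of 4.24 (3.38 to 5.36) at day 5 and 4.22 (3.78 to 4.71) at day 3. At day 5 the factors higher there were Klf4, Creb3l3 and Maf (3 of 10, background 3.85%), and at day 3 Klf4 alone (1 of 8 with enough UMIs, background 4.66% higher and 3.59% lower). The Maf call was lost with the top cell of each side dropped (0.86). With each cell thinned to 6777 UMIs, Klf4 was found in 42.5% of mixed secretory and 4.20% of Stem-like cells at day 5 (77.5% and 5.88% unthinned). At day 3 it was found in 62.2% of mixed secretory and 1.36% of Stem-like cells (95.6% and 25.9% unthinned). Median depth was 17420 and 14317 UMIs for these classes at day 5, and 32857 and 32932 UMIs at day 3. At day 3 Klf4 was also higher in Regenerative-like cells, at 16.6 CPM (12.8 to 21.0) against 8.98 CPM (6.62 to 11.9) in Stem-like cells. That call, from 67 and 48 UMIs, was lost with TMM factors and in 4 other groupings of cells. Day 3 Enterocyte-like cells had 17.7 CPM (13.3 to 23.2), also higher than the Stem-like cells, though not when UMIs were counted per cell (a log2 ratio of 0.59) or at a resolution of 0.6 (0.76). In Enterocyte-like cells Klf4 was lower at day 5, at 8.16 CPM (5.93 to 10.9), than at day 3, a call that was lost with TMM factors (-0.78).

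Klf5 (ENSMUSG00000005148, chromosome 14, 99298691 to 99315036, plus strand), a factor of dividing crypt cells, stood at 306 CPM (298 to 315) at day 5, against 231 CPM (225 to 237) at day 3, giving a log2 ratio of 0.41 under the limit. The order of the clusters differed between the days. At day 5 it was highest in Stem-like cells at 424 CPM (396 to 452) and lowest in Enterocyte-like clusters 8 and 9, at 197 CPM (175 to 222) and 175 CPM (158 to 194). At day 3 it was highest in the unnamed cluster 9, led by genes such as Ndrg1 and Bnip3, at 314 CPM (295 to 334) and in Enterocyte-like cluster 7 at 311 CPM (281 to 344). Its low end at day 3 was in the Regenerative-like cells at 169 CPM (157 to 182), the mixed secretory cells at 165 CPM (146 to 186) and the 8 Enteroendocrine-like cells at 123 CPM (91.5 to 162).

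Enterocyte-like over Stem-like cells gave a log2 ratio for Klf5 of -0.99 (-1.11 to -0.86) at day 5 and 0.36 (0.23 to 0.49) at day 3. Only the day 5 ratio passed the limit, and the difference between the days was not tested. Counted per cell the day 3 ratio was -0.03. The Stem-like clusters of day 3 differed, with Klf5 at 197 CPM (181 to 214) in cluster 5 and 259 CPM (240 to 280) in cluster 11. Along the enterocyte marker groups Klf5 was at 352, 366, 314, 220 and 178 CPM at day 5, and at 176, 204, 246, 255 and 297 CPM at day 3. Marker shares of UMIs were not alike between the days, with group medians of 0.146% to 5.62% at day 5. In Stem-like cells Klf5 was higher at day 5, at 424 CPM against 226 CPM (213 to 239) at day 3, giving a log2 ratio of 0.91 (0.78 to 1.03), in a class whose stem and proliferation markers were mostly lower at day 5. Klf4 held 3.33% (2.87 to 3.84) of the pair's UMIs at day 5 and 7.87% (7.26 to 8.52) at day 3, and in the mixed secretory cells 32.0% (26.2 to 38.2) and 50.6% (46.2 to 54.9).

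**Figure D4:**
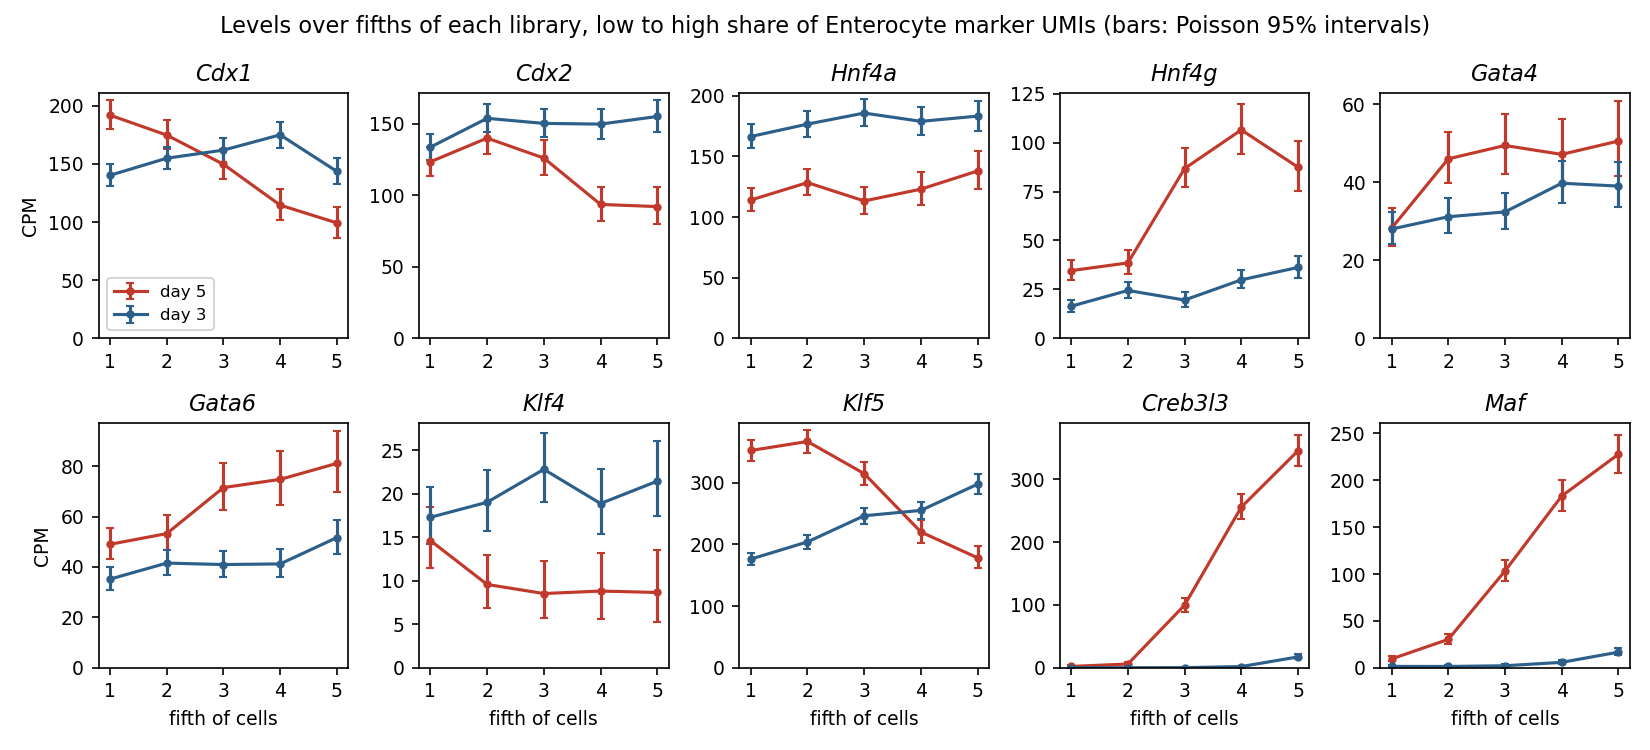
CPM with Poisson 95% intervals over 5 groups of equal size in each library, ordered from low to high share of UMIs in enterocyte markers, at day 5 (red) and day 3 (blue). Creb3l3 climbs from 2.26 to 345 CPM and Maf from 9.47 to 228 CPM at day 5, while Klf5 goes from 352 to 178 CPM at day 5 and from 176 to 297 CPM at day 3.

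Creb3l3 and Maf were the factors with the largest differences between the days, and both were highest in Enterocyte-like cells. Creb3l3 (ENSMUSG00000035041, chromosome 10, 81084324 to 81098874, minus strand) stood at 104 CPM (99.1 to 109) at day 5, against 3.34 CPM (2.70 to 4.08) at day 3, from 1801 and 96 UMIs. Its log2 ratio was 4.95 (4.66 to 5.27). Maf (ENSMUSG00000055435, chromosome 8, 115682942 to 115707794, minus strand) stood at 86.7 CPM (82.4 to 91.2) at day 5, against 4.94 CPM (4.16 to 5.82) at day 3, from 1505 and 142 UMIs. Its log2 ratio was 4.13 (3.89 to 4.39). Both stayed higher in the 320 deeper day 5 cells (3.27 and 3.22) and with Enterocyte-like cells left out on both days (4.96 and 3.58). The cells left at day 5 include the unnamed cluster 6, where the 18 enterocyte markers summed to 16291 CPM, above the 6685 CPM of the highest day 3 cluster. It held 198 of the 281 Creb3l3 UMIs and 230 of the 447 Maf UMIs left at day 5.

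Enterocyte-like cells held 84.4% of the Creb3l3 UMIs at day 5 and 80.2% at day 3, and 70.3% of the Maf UMIs at day 5 and 43.7% at day 3. At day 5 Creb3l3 was at 350 CPM (326 to 375) in cluster 9, 287 CPM (259 to 316) in cluster 8 and 195 CPM (175 to 217) in cluster 7, with no overlap between them. Maf followed the same order, at 253 CPM (233 to 275), 186 CPM (164 to 211) and 134 CPM (117 to 152), and the unnamed cluster 6 came next for both, at 79.0 CPM (68.4 to 90.8) for Creb3l3 and 91.8 CPM (80.3 to 104) for Maf. Stem-like cells of day 5 had 2.84 CPM (1.04 to 6.18) of Creb3l3 from 6 UMIs and 18.4 CPM (13.1 to 25.2) of Maf from 39 UMIs. Enterocyte-like over Stem-like log2 ratios at day 5 were thus 6.52 (5.51 to 8.08) for Creb3l3 and 3.39 (2.95 to 3.91) for Maf.

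At day 3 both were highest in Enterocyte-like cluster 8, led by Fabp1, at 42.4 CPM (33.2 to 53.3) for Creb3l3 and 31.4 CPM (23.6 to 40.9) for Maf. In the other Enterocyte-like cluster of that day they were at 3.15 CPM (0.859 to 8.07) and 6.31 CPM (2.72 to 12.4). Stem-like cells of day 3 had 3 UMIs of each gene, which gives log2 ratios of 5.31 (3.92 to 7.83) for Creb3l3 and 5.00 (3.59 to 7.52) for Maf in Enterocyte-like cells. The library of day 3 holds few Creb3l3 UMIs, and 60.4% of them sat in 10 cells. Enterocyte-like cells of day 5 over those of day 3 gave log2 ratios of 3.44 (3.12 to 3.80) for Creb3l3, 3.23 (2.87 to 3.64) for Maf, 1.45 for Hnf4g and 0.59 for Gata6. The class was not alike on both days: its enterocyte markers summed to 32022, 42046 and 55351 CPM in clusters 7, 8 and 9 at day 5, and to 1626 and 6685 CPM in clusters 7 and 8 at day 3. The unnamed day 3 cluster 9 had 1653 CPM. The part of these markers in the ratios was not tested. These 4 of 10 factors were higher (background 13.2%) and Klf4 alone was lower (background 27.3%). The Gata6 call was lost at clustering resolutions of 0.6 (0.46) and 1.5 (0.53) and with the 10 factors kept among the genes clustered (0.52).

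In the other classes the UMIs were fewer. Maf was higher in Stem-like cells of day 5 than of day 3, at 18.4 against 0.561 CPM (0.116 to 1.64), a log2 ratio of 4.83 (3.39 to 7.38) from 39 and 3 UMIs. Creb3l3 had 6 and 3 UMIs there, under the minimum. The Maf difference was not particular to Stem-like cells. Proliferating-like cells had Maf at 21.4 CPM at day 5 and 0.985 CPM at day 3, and Creb3l3 at 7.51 and 0.328 CPM. Mixed secretory cells had Maf at 41.4 and 3.72 CPM, and Creb3l3 at 22.0 and 0 CPM. The part of RNA from other cells in a droplet in these low levels was not tested. In day 3 Regenerative-like cells Maf was at 5.44 CPM (3.41 to 8.23) from 22 UMIs against 0.561 CPM in Stem-like cells, a log2 ratio of 3.09 (1.54 to 5.66), while Creb3l3 had 5 UMIs and was not tested. In the 17 Regenerative-like cells of day 5 Creb3l3 was at 31.8 CPM (17.4 to 53.4) from 14 UMIs, a log2 ratio of 3.42 (2.02 to 5.15) over Stem-like cells. Maf in those cells was at 34.1 CPM (19.1 to 56.2), whose interval overlaps that of the Stem-like cells. Enterocyte markers summed to 5713 CPM in these 17 cells and 3124 CPM in the Stem-like cells of day 5, and their part in the Creb3l3 ratio was not tested.

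With each cell thinned to 6777 UMIs, Creb3l3 was found in 84.0% of Enterocyte-like and 0.840% of Stem-like cells at day 5 (93.9% and 5.04% unthinned). Maf was found in 68.4% of Enterocyte-like and 11.8% of Stem-like cells (80.3% and 18.5% unthinned), and both genes together in 58.2% of Enterocyte-like cells. At day 3, 10.2% of Enterocyte-like cells held Creb3l3 and 7.41% Maf (24.1% and 26.9% unthinned), with medians of 24637 UMIs in Enterocyte-like and 32932 in Stem-like cells. None of the 147 Stem-like cells of day 3 held either after thinning (2.04% for each unthinned). Along the marker groups of day 5 Creb3l3 was at 2.26, 6.07, 99.7, 256 and 345 CPM and Maf at 9.47, 30.3, 103, 183 and 228 CPM. Between the first and the second group the intervals of Maf lay apart (6.93 to 12.6 and 25.4 to 36.0). Those of Creb3l3, from 11 and 26 UMIs, just touched (1.13 to 4.05 and 3.96 to 8.89). Whether 1 of the genes rises before the other was not tested.

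**Figure D5:**
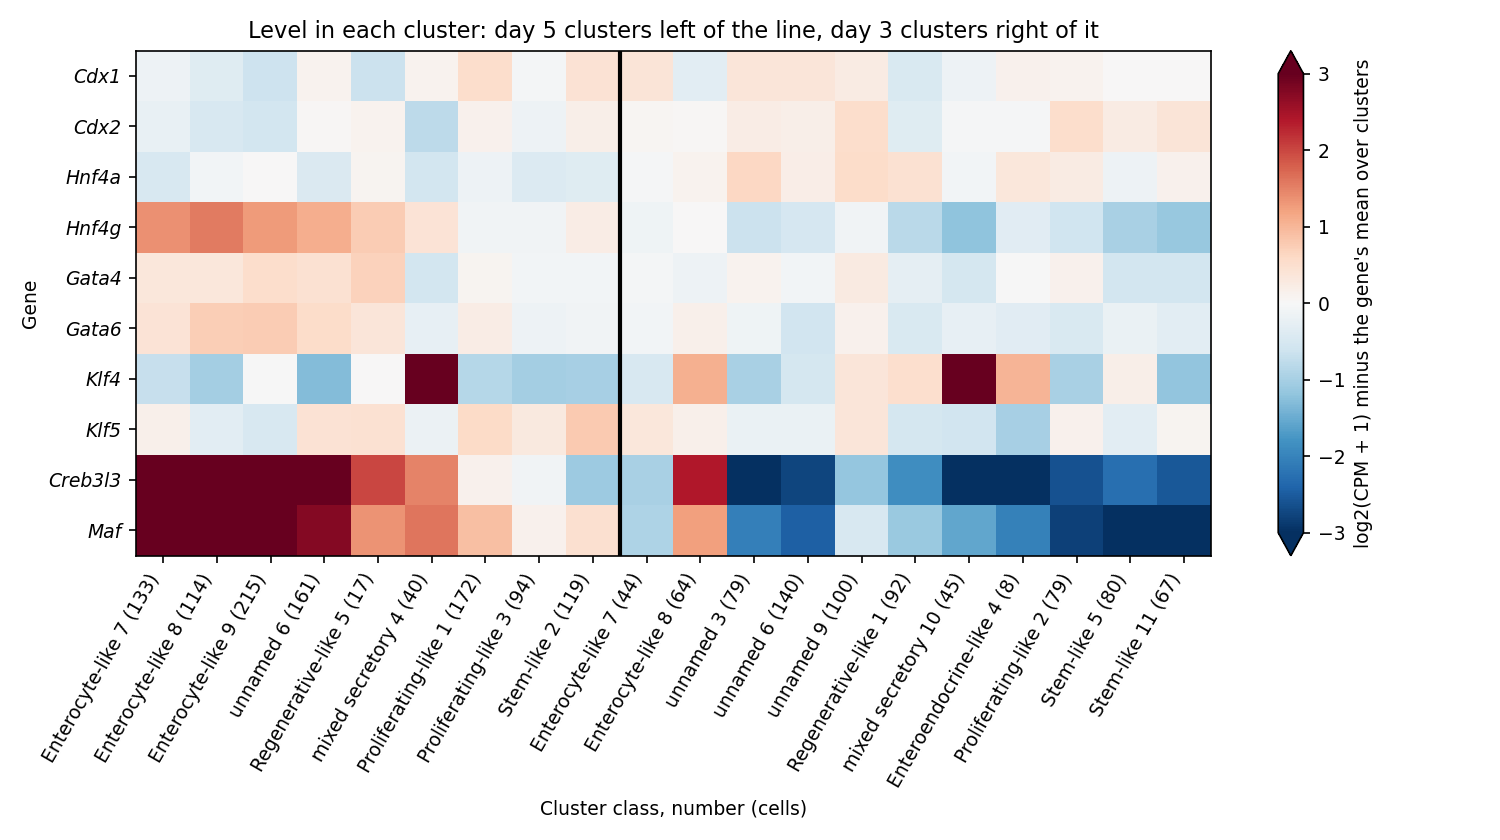
Level of each factor in each cluster as log2(CPM + 1) minus the gene's mean over the 20 clusters, day 5 clusters left of the line and day 3 clusters right of it, with the number of cells in brackets. Creb3l3 and Maf are high in the day 5 Enterocyte-like clusters and in day 3 cluster 8, and Klf4 stands out in the mixed secretory cluster of each day.

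Creb3l3 has 2 starts in RefSeq on the minus strand, and both windows are shown since its level differs most. They lie at chr10:81092542-81092841, inside the gene, and chr10:81098823-81099122, at its annotated end (GRCm38.p6, 250 bases before to 50 after the start, written 5′ to 3′). Capitals mark the HNF4 motif CAAAGT (here read from the other strand as ACTTTG), the GATA motif AGATAA and the KLF motif CCACCC.
Creb3l3 internal start: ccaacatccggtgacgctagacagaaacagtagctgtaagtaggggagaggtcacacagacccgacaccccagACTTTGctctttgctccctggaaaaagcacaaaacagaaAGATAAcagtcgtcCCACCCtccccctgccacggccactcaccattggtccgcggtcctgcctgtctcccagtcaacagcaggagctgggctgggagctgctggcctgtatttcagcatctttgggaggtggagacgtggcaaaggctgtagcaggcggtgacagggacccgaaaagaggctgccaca
Creb3l3 outer start: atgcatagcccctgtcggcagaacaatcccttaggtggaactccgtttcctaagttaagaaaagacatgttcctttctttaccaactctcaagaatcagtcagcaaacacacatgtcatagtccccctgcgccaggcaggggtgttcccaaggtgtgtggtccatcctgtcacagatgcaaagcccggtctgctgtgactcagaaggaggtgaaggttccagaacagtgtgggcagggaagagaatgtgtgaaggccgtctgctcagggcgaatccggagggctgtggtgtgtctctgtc
The internal window held CAAAGT at position -177, AGATAA at -138 and CCACCC at -124, with no overlap, and the CDX motif TTTATNG was in neither window. None of the 4 motifs was found in the outer window. Of all 32544 windows 14.44% held CAAAGT and 10.85% TTTATNG. A match is a description of the letters, and the counts do not say which start the cells used. Of the 10 factors, 4 had windows that were searched, 6 windows in all. The Cdx2 window held 1 CCACCC and the Klf4 window none of the 4 motifs.

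Over the 20 clusters of both libraries, Creb3l3, Maf, Hnf4g and Gata6 had similar profiles of log2(CPM + 1). Pearson's r was 0.96 for Creb3l3 with Maf, 0.94 for Hnf4g with Maf, 0.93 for Hnf4g with Creb3l3 and 0.89 for Gata6 with Creb3l3. Within the 9 clusters of day 5 the first of these was 0.98, and within the 11 of day 3 it was 0.84. The others were lower at day 3. Hnf4g with Maf gave 0.93 at day 5 and 0.68 at day 3, Hnf4g with Creb3l3 0.94 and 0.64, and Gata6 with Creb3l3 0.85 and 0.68. Hnf4a with Hnf4g gave -0.46 over both days, but 0.25 at day 5 and 0.29 at day 3. Cdx2 with Klf5 gave 0.92 at day 5 and 0.59 at day 3, and Klf5 with Creb3l3 -0.75 at day 5 and 0.50 at day 3. Clusters of 1 library share its depth and culture, so these values describe the profiles only.

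Among 9616 genes with at least 100 UMIs, the profiles most like that of Creb3l3 were Cyp2b10, a cytochrome P450 (r = 0.98), Slc2a2, the glucose transporter of the basal membrane (0.98), and Cyp2j6 (0.97). Those most like Maf were Cideb, a lipid droplet protein that aids lipoprotein loading (0.99), Fmo5 (0.98) and Cyp4f14 (0.98). For Hnf4g they were Erich4 (0.97), Cda (0.96) and Bche, which encodes butyrylcholinesterase (0.96), and for Gata6 Cox7a1, Adh7 and Slc17a4 (0.93, 0.92 and 0.92). For Klf4 they were Ccl9 (0.89), the Paneth cell protease gene Mmp7 (0.88) and Galnt7 (0.88). Cdx1 was closest to Lipg (0.86), the stem cell gene Smoc2 (0.79) and the cell cycle factor E2f2 (0.78), and Cdx2 to Rap1a, Coa3 and Pigyl (0.87, 0.87 and 0.86). Hnf4a was closest to Kcmf1, Slc38a2 and Tbc1d10b (0.91, 0.91 and 0.90), Gata4 to Gna11, Cds1 and Tubal3 (0.83, 0.82 and 0.81) and Klf5 to Fars2, S100a5 and Pts (0.87, 0.83 and 0.82).

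Known targets of HNF4 and CREB3L3 were mostly higher at day 5. Of 22 HNF4 target genes 19 were higher and none lower, with a median log2 ratio of 2.39 against -0.33 for all genes, of which 12.3% were higher and 31.6% lower. Apoa4 and Apoa1, apolipoproteins of fat export, had the highest ratios, 6.89 and 6.86, and Cpt1a, an enzyme of fatty acid oxidation, was among the lowest at -0.09. In this list 9 genes were also among the enterocyte markers. In Stem-like cells 15 of 21 HNF4 targets were higher at day 5 (background 7.68%). So were 16 of 17 enterocyte markers in these cells, with 3124 CPM in sum at day 5 against 639 CPM at day 3. Their part in the count of targets was not tested. Of 6 CREB3L3 target genes with enough UMIs 5 were higher and none lower, with Apoa4 and Apoa1 highest again, and the lowest ratios were 0.49 for the nuclear receptor Ppara and 0.79 for the lipid droplet gene Cidec. Apoa4 and Apoa1 are enterocyte markers too. Of 13 CDX2 target genes 7 were higher and 2 lower (background 12.3% and 31.6%), and 4 of the list, Lct, Sis, Krt20 and Mep1a, are also enterocyte markers. Lct, the lactase gene, had the highest ratio, 7.45 (5.91 to 10.83) from 264 and 2 UMIs, before Sis, sucrase-isomaltase, with 6.69. Fut2, a fucosyltransferase (-2.64), and Cldn2, a pore-forming claudin of the crypt (-0.70), were lower.

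Genes that mark regions of the gut were higher in some cases and lower in others. The background for all these lists is again 12.3% higher and 31.6% lower. Of 12 upper small intestine genes 6 were higher and 1 lower at day 5, and 2 of the list are enterocyte markers. Reg3b (11.13) and Lct (7.45) stood at one end, and Cybrd1, a duodenal iron reductase (-2.17), and Pdx1 (-0.32) at the other. Of 11 lower small intestine genes 4 were higher and 3 lower, from the bile salt exporter subunit Slc51b (3.96) and the ileal vitamin uptake receptor Cubn (3.27, interval 1.41 to 6.72) to the peptide hormone Pyy (0 UMIs at day 5 and 56 at day 3) and the ileal bile acid transporter Slc10a2 (-1.32). Of 5 stomach genes with enough UMIs none was higher and 3 were lower. Tff1 (0 UMIs at day 5 and 48 at day 3) and Anxa10 (1.73 and 22.4 CPM, a log2 ratio of -3.67) had the lowest ratios, and Nkx6-3 (2.02) and Tff2 (0.94) the highest. Anxa10 was also among the first 10 leading genes of the day 3 Regenerative-like cluster. That class held 92 cells at day 3 and 17 at day 5, and its part in the ratio was not tested. The stomach factor Sox2 and the mucin Muc5ac were not in the table. Of 6 colon genes 3 were higher and none lower, with Aqp8 (5.09, interval 3.48 to 8.49) and Lypd8 (1.09) highest and Prdx6b (-0.06) lowest.

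Of 31 other transcription factors of the intestine, 7 were higher and 4 lower at day 5 (background 12.3% and 31.6%), with a median log2 ratio of 0.07. Thrb, a thyroid hormone receptor (1.58), and Nr1h3, an oxysterol receptor (1.26), were highest, and the forkhead factor Foxa1 (-1.84) and Pparg (-1.42) lowest. Foxa1 was at 7.26 CPM at day 5 and 26.0 CPM at day 3. Of 18 family relatives of the 10 factors 4 were higher and 4 lower, against the same background. Creb3l2 (0.95) was among the highest, and Mafg, a small MAF protein (-1.57), and Klf9 (-1.39) were lowest. Mafg was at 21.5 CPM at day 5 and 63.9 CPM at day 3, the side opposite to Maf.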

How the data were processed

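Single cells of mouse intestinal organoids at day 5 and day 3 were counted on 10x Genomics Chromium 3-prime libraries, per the labels' protocols. UMI counts by gene and by cell were deposited by the authors, made with Cell Ranger 1.3.0 on mm10 per the submitters' processing notes. How genes and cells were filtered is not given in the sources used here. A second deposited table has log2 values, which from the values are log2 of the count over the cell's size factor, plus 1. The table holds 15745 genes and 1863 cells, and 15681 identifiers matched a symbol. Columns carry cell numbers and no barcodes, so barcodes shared between libraries were not counted. Positions come from GENCODE M21 on GRCm38, and promoters from RefSeq.

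The 10 factors, the gene lists and the limits were chosen with earlier results of these data known. Counts were summed over cells and given as CPM with exact Poisson 95% intervals. Log2 ratios used 0.5 UMI added to each sum. With 1 library a day there is no replicate, so no test was made and no p-value is given. Each library was clustered without the 10 factors (scanpy 1.11.5, igraph 0.11.9: counts scaled to 10000, 2000 variable genes, 30 components, 15 neighbours, Leiden resolution 1). Names ending in -like needed 3 or more markers of a type among the 30 leading genes with a UMI in 50% of the cluster's cells, and no rival type with more markers in the first 10. These naming limits were set after the leading genes were seen, and another naming may give other classes. Scrublet marked 8 cells of day 5 and 0 of day 3 as doublets. None was removed, and doublets cannot be taken as removed. Thinning to 6777 UMIs left out 0 cells. The rule for genes named was all 10 factors, the 2 highest and 2 lowest ratios of each list, and the 3 most similar profiles of each factor, except for a few list genes that are not reported here. The lists were target genes of HNF4, CDX2 and CREB3L3, genes of 4 gut regions, other intestinal transcription factors and family relatives. Alternatives covered scaling (TMM of edgeR 4.0.16), fold, minimum of UMIs, depth, clustering and naming. Software was Python 3.11.15, numpy 2.4.6, pandas 2.3.3, scipy 1.17.1, matplotlib 3.10.9 and R 4.3.3.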

Additional observations from a re-analysis of the deposited data

Results flagged for a closer look

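Klf5 had log2 ratios of opposite sign in the same comparison of classes on the 2 days. Enterocyte-like over Stem-like cells gave a log2 ratio of -0.99 (-1.11 to -0.86) at day 5 and 0.36 (0.23 to 0.49) at day 3, with both intervals clear of 0. The day 3 ratio is under the 1.5-fold limit, and counted per cell it was -0.03. The day 5 ratio kept its call under 10 of 11 alternatives and was lost under a 2-fold limit. With 1 library a day the difference between the days was not tested. Stem-like cells were cluster 2 at day 5 and clusters 5 and 11 at day 3, and cluster 11 also held dividing-cell genes such as Kpna2 and Aurka among its leading genes. Klf5 was at 197 CPM (181 to 214) in cluster 5 and 259 CPM (240 to 280) in cluster 11. Of the day 3 Enterocyte-like clusters, cluster 8 at 275 CPM (250 to 301) overlapped cluster 11. The other, cluster 7 at 311 CPM (281 to 344), did not.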

How the results depend on the processing

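Over 35 called values of the factors and their alternatives, 417 values in all, 358 kept the call and 0 changed direction. The means of the authors' log2 values, on a scale that understates low genes, gave 2 factors higher and 0 lower at day 5, 1 higher in Stem-like cells at day 5, and 0 higher in Enterocyte-like cells and 0 in either direction in Regenerative-like cells at day 3. A 2-fold limit gave 0 lower at day 5, 0 lower in day 5 Enterocyte-like cells, and 1 higher and 0 lower in day 3 Regenerative-like cells. Leaving out Enterocyte-like cells gave 2 lower at day 5 (Hnf4a and Klf4). UMIs per cell, an alternative chosen after seeing the data, gave 2 higher in day 5 Enterocyte-like cells, 6 higher and 0 lower in day 5 Regenerative-like cells, 0 lower in day 3 Regenerative-like cells, and 1 lower (Cdx2) in day 3 Enterocyte-like cells. TMM factors gave 5 higher in Stem-like cells at day 5, and 1 higher and 3 lower (Cdx1, Cdx2 and Klf5) in day 3 Regenerative-like cells. A minimum of 50 UMIs gave 1 higher in Regenerative-like cells at day 3 and 0 at day 5. Weighing each cell alike gave 5 higher in day 5 Regenerative-like cells and 1 lower (Klf4) in Stem-like cells at day 5. For day 3 Regenerative-like cells, a resolution of 1.5 gave 1 higher, a resolution of 0.6 gave 0 lower, and both the factors kept among the genes clustered and joint clustering gave 1 higher and 0 lower. A resolution of 0.6 gave 1 lower (Klf4) in Stem-like cells at day 5, and Proliferating-like cells joined to the Stem-like ones gave 2 higher in day 5 Regenerative-like cells. The cause of these changes was not tested. No day 5 cluster was Stem-like at a resolution of 1.5, with the factors kept or in joint clustering, so those comparisons gave no value. No cluster was Regenerative-like at day 5 at a resolution of 0.6, nor at day 3 with the other naming limits, which were also chosen after seeing the data.

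With TMM factors, the lists gave 20 higher and 0 lower HNF4 targets, 10 and 1 CDX2 targets, 6 and 0 CREB3L3 targets, 7 and 1 upper and 5 and 2 lower small intestine genes, 1 and 3 stomach genes, 3 and 0 colon genes, 13 and 3 other factors and 7 and 3 relatives. Depth limits the low genes most: Creb3l3 and Maf had 3 UMIs each in day 3 Stem-like cells. No paired analysis was possible because each day has 1 library.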
